A study of Mus musculus with 9 samples.

Results

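The synaptic vesicle release machinery was examined as 37 genes in the medial prefrontal cortex of mice exposed to chronic restraint stress. The genes were picked by symbol from a list of vesicle proteins, SNAREs, synaptotagmins, active zone proteins and vesicular glutamate transporters. All 37 were found among the 24532 genes listed, and all 37 passed the filter for testing, a mean of 30 reads or more over the 9 mice, as did 14370 genes in all. RNA was sequenced from 9 C57BL/6 mice, 3 in each of 3 groups, aged 11 weeks by the sample labels, while the study's methods describe C57BL/6J males of 8 weeks. CT mice were wild-type and not restrained, but went without food and water during the restraint periods. WT_ST mice were wild-type and KO_ST mice were Fkbp5-/-, constitutive knock-outs of the gene for a co-chaperone of the glucocorticoid receptor, and both groups were restrained daily for 3 weeks. An unstressed Fkbp5-/- group was not analysed here, so KO_ST against CT combines genotype and stress, and genotype is compared only among stressed mice.

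Neurotransmitter is loaded into vesicles by membrane transporters, such as the vesicular glutamate transporters encoded by Slc17a6, Slc17a7 and Slc17a8. Vesicles are tethered and primed at the active zone by Bassoon, Piccolo, RIM and Munc13 proteins. Fusion is driven by the SNAREs synaptobrevin (Vamp1, Vamp2), syntaxin (Stx1a) and SNAP-25 (Snap25), is held and released by complexins, and is triggered by calcium binding to synaptotagmins such as Syt1 and Syt2. Nsf and its adaptor Napb take spent SNARE complexes apart, and dynamin (Dnm1) pinches off membrane for recycling.

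In bulk tissue, fewer cells of a type and less RNA per cell cannot be told apart. Library depth ran from 43778471 to 61150128 counted reads, of which 2.35% to 2.64% fell on the 37 release genes. FPKM of Fkbp5, the targeted gene, was 6.46 to 7.61 in CT, 9.47 to 10.3 in WT_ST and 3.59 to 4.69 in KO_ST, with no overlap between the groups, so transcript of the targeted gene was still counted in the knock-outs. General neuron markers summed to 1037 to 1140 FPKM in every mouse, cortical excitatory neuron markers to 942 to 956 in CT, 880 to 909 in WT_ST and 848 to 931 in KO_ST (0 of 5 called in any comparison, with 4 of 5 normalized means higher in WT_ST than CT), and the summed choroid plexus markers reached at most 0.787. In CT replicate 3 these genes often had their lowest value: after normalization it was the lowest of the 9 mice for 14 of 37 members, against 13.8% of all tested genes. CT replicate 2 was the lowest for 8 of 37 members, near its share of 17.1% of all tested genes. Oligodendrocyte markers summed to 868 FPKM in CT replicate 3, against 457 to 767 in the other mice.

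Levels of the members ranged from under 1 to over 1000 FPKM. FPKM is a count of sequenced fragments scaled to transcript length and library size, so levels can be set side by side between genes. Mean FPKM was at least 100 for 19 members, between 10 and 100 for 11 and under 10 for 7. Snap25, which encodes a plasma membrane SNARE, ranked 2 of all listed genes by mean FPKM, with 987 to 1485 FPKM over the mice. Syp, the vesicle protein synaptophysin, ranged from 636 to 702, Slc17a7, the main cortical glutamate transporter of vesicles, from 581 to 677, and Vamp2 from 538 to 603. Syt2, Slc17a6, Slc17a8, Sv2c, Syn3, Unc13c and Cplx3 made up the group under 10 FPKM. In all, 7 members ranked among the first 100 genes by level and 21 among the first 1000.

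**Figure D1:**
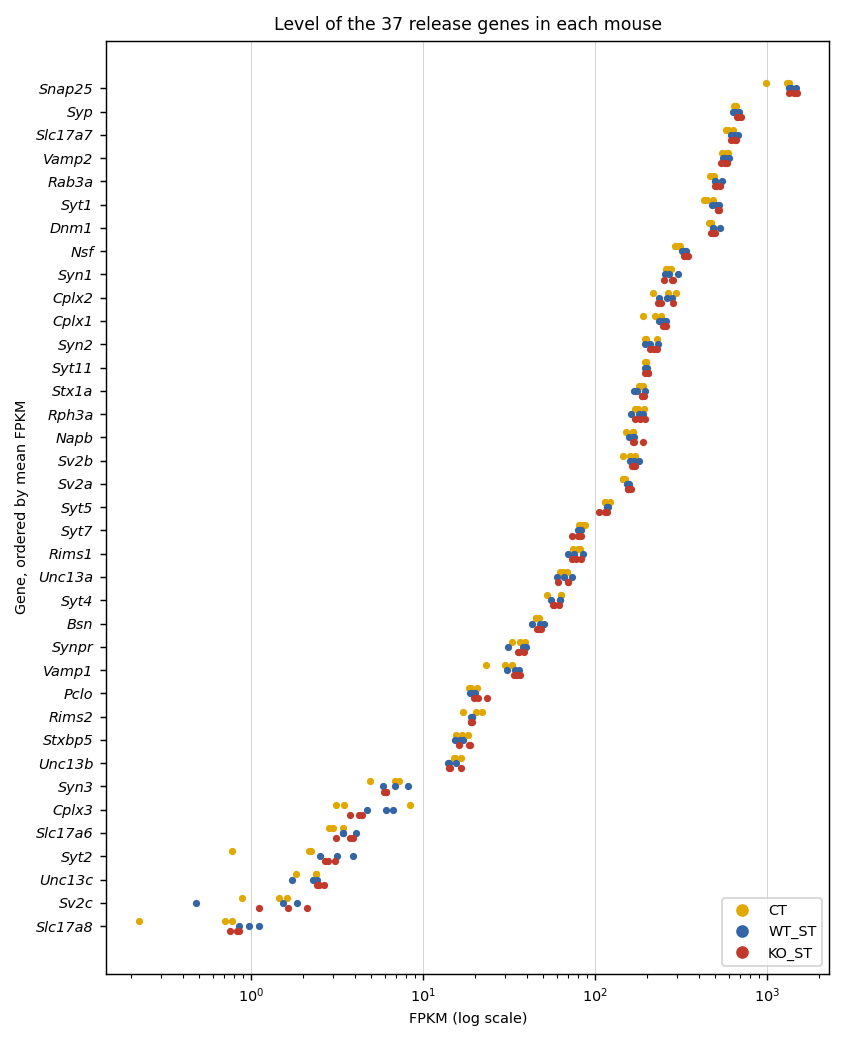
FPKM (log axis) of each of the 37 release genes in each of the 9 mice, ordered by mean level, with CT in yellow, WT_ST in blue and KO_ST in red. Points of the genes above 100 FPKM lie close together, and the spread is widest for low genes such as Slc17a8, Sv2c and Syt2.

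Within families, the same paralog led in all 9 mice for glutamate transporters, synaptobrevins, synapsins, Munc13 proteins, RIM proteins and synaptotagmins, while Cplx1 and Cplx2, and Sv2a and Sv2b, lay close together. Slc17a7 supplied 99.2% to 99.5% of the FPKM of the 3 glutamate transporters. Vamp2 supplied 93.9% to 96.1% of the synaptobrevin FPKM and Vamp1 3.87% to 6.11%, with the lowest Vamp1 share in CT replicate 2. Cplx1 held 45.4% ± 2.42 of the complexin FPKM in CT, 48.2% ± 1.03 in WT_ST and 49.7% ± 2.05 in KO_ST (SD, n = 3), and Cplx3 0.613% to 1.59%. Syt1, the main fast calcium sensor of the forebrain, held 49.7% ± 1.55 of the FPKM of the 6 synaptotagmins in CT, 52.2% ± 0.979 in WT_ST and 53.5% ± 0.353 in KO_ST (SD, n = 3). Syt2, a fast calcium sensor found in some inhibitory neurons, held 0.0868% to 0.415% of it. Unc13a led the Munc13 priming genes with 77.1% to 81.9%, and Rims1 exceeded Rims2 at 77.1% to 82.6% of their sum.

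Promoter sequence was available for 30 of the 37 members in RefSeq (GRCm38.p6), and all 37 have an annotated position there. The 250 bases before the transcription start are shown for the genes called in a comparison below that have a window outside the annotated gene (Vamp1, Cplx3 and Slc17a8) and for Cplx1, an abundant complexin described below, each 5′ to 3′ on the gene's strand, with GC boxes (GGGCGG or its complement CCGCCC) and E-boxes (CACGTG) in capitals. The windows are chr6:125215331-125215580 (+ strand) for Vamp1, chr5:108550028-108550277 (− strand) for Cplx1, chr9:57606282-57606531 (− strand) for Cplx3 and chr10:89621250-89621499 (− strand) for the upstream start of Slc17a8.
Vamp1: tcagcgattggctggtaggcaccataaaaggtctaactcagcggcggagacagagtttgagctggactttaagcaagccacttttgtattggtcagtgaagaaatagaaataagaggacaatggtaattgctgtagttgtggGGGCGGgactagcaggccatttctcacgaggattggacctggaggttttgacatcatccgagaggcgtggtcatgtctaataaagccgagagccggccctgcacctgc
Cplx1: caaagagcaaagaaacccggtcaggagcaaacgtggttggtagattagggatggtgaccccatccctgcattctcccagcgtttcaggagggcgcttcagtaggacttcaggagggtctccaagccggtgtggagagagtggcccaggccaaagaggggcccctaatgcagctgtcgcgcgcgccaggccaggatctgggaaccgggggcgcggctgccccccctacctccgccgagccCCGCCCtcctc
Cplx3: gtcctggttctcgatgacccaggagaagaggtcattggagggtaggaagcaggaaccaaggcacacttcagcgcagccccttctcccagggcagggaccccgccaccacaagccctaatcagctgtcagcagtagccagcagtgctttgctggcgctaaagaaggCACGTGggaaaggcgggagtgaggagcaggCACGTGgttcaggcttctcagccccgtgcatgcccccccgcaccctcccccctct
Slc17a8: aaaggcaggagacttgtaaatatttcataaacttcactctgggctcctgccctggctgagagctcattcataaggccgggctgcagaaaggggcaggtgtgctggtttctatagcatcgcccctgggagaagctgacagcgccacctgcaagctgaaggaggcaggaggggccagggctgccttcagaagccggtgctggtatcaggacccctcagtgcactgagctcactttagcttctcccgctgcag
The GC box starts 108 bases before the Vamp1 start and 11 bases before the Cplx1 start, and the Cplx3 window holds 2 E-boxes and no GC box. Neither motif is in the Slc17a8 window. Searched on both strands, the GC box was in a window of 21 of the 30 members (70%), against 35.4% of the 27025 genes with a window. A gene counted if any of its listed windows held the motif, and some genes have several windows. The 27025 genes were not limited to those tested here. The E-box, which reads alike on both strands, was in 4 members (13.3%) and 6.86% of all genes, and the cyclic AMP response element TGACGTCA in 1 member (Syn1) and 1.77% of all genes. Some of the windows searched, those of Syt2 among them, start from an internal start site and lie partly or wholly within the annotated gene. These are counts of letters, and a match does not show that a factor binds.

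The effect of restraint in wild-type mice was read from WT_ST against CT. Syt2 and Slc17a8 were called higher in WT_ST, and no member was called lower. Group differences are log2 fold changes of quantile-normalized log2(FPKM + 1), tested with limma over all 14370 genes, and a gene was called at an unadjusted p under 0.05 with a fold change above 1.2. By that rule 2 of 37 members were called, against 2.47% of all tested genes (1.16% called higher and 1.32% lower). After Benjamini-Hochberg adjustment 0 members passed in limma, edgeR or DESeq2, as did 0.0348% of all genes in limma. An unadjusted p under 0.05 was reached by 5 members in limma (7.86% of all genes), 3 in edgeR and 6 in DESeq2.

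Syt2 (chr1:134646534-134753149) was measured at 2.23, 0.776 and 2.17 FPKM in CT, 2.504, 3.90 and 3.16 in WT_ST and 2.80, 2.68 and 3.08 in KO_ST. Every stressed mouse exceeded every CT mouse, and CT replicate 2 stood far below the rest, with 143 reads against 367 to 654 in the others. The log2 fold change in WT_ST against CT was 0.69, or 1.61-fold (SE 0.233, unadjusted p = 0.0207, adjusted p = 0.634, limma). Without CT replicate 2 it was 0.42 and still called, and without WT_ST replicate 2 it was 0.58 (unadjusted p = 0.0713, limma) and not called.

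Slc17a8 (chr10:89574020-89621249), the third vesicular glutamate transporter, carried in cortex by a small set of interneurons, was measured at 0.773, 0.707 and 0.223 FPKM in CT, 0.9703, 0.857 and 1.11 in WT_ST and 0.829, 0.854 and 0.7505 in KO_ST. The WT_ST mice lay above all CT mice, and CT replicate 3 had 50 reads against 166 to 224 in the other 8 mice. Its log2 fold change in WT_ST against CT was 0.38, or 1.3-fold (SE 0.147, unadjusted p = 0.0368, adjusted p = 0.635, limma). Without CT replicate 3 it was 0.20 and under the 1.2-fold limit, so this call rested on that mouse. It was also lost without WT_ST replicate 1 (0.37, unadjusted p = 0.0804) or WT_ST replicate 3 (0.34, unadjusted p = 0.1), and on reads the value was 0.78 in edgeR (unadjusted p = 0.0973) and in DESeq2 (unadjusted p = 0.0439, called).

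Below the fold limit, 3 abundant members had an unadjusted p under 0.05 in WT_ST against CT in limma. Syt1 was at 484, 432 and 449.9 FPKM in CT, 525, 482 and 505 in WT_ST and 518, 528 and 519 in KO_ST. Its log2 fold change was 0.14 (SE 0.0545, unadjusted p = 0.0372, adjusted p = 0.635, limma), and the groups did not overlap after normalization, although the FPKM of CT replicate 1 exceeded that of WT_ST replicate 2. Dnm1 was at 460, 470.5 and 470.6 FPKM in CT, 534, 486 and 485 in WT_ST and 476, 489 and 497 in KO_ST, with a log2 fold change of 0.11 (unadjusted p = 0.0224, limma). Sv2a, a vesicle glycoprotein that binds levetiracetam, was at 145, 146 and 149 FPKM in CT, 159, 154 and 155 in WT_ST and 155, 162 and 156 in KO_ST. Its difference was 0.08 (unadjusted p = 0.0441, limma), the smallest of the 5 with an unadjusted p under 0.05.

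Other SNARE and Rab members did not reach an unadjusted p of 0.05 in limma. On reads, Nsf did so in edgeR (unadjusted p = 0.0287) and DESeq2 (unadjusted p = 0.016), and Cplx1 in DESeq2 (unadjusted p = 0.047). Nsf, the ATPase that separates SNARE complexes, was at 312, 303 and 292 FPKM in CT, 339, 319 and 334 in WT_ST and 348, 340.5 and 329 in KO_ST, so no CT mouse reached any stressed mouse (log2 fold change 0.12 in WT_ST, unadjusted p = 0.0534, limma, and 0.07 without CT replicate 3). Rab3a, a vesicle GTPase, was at 492, 478 and 469 in CT, 544, 498 and 495 in WT_ST and 504, 536 and 499 in KO_ST (0.09 in WT_ST, unadjusted p = 0.0912, and 0.05 without CT replicate 3). Cplx1, the complexin of fast release at many cortical synapses, was at 240.4, 190.7 and 224.7 FPKM in CT, 249, 258 and 235 in WT_ST and 253, 248 and 259 in KO_ST, a difference of 0.19 in WT_ST (unadjusted p = 0.0615, limma) that overlapped between the groups. CT replicate 2 was again the lowest, and without it the difference was 0.10. Without CT replicate 1 it was 0.27 and called. Vamp1 was 0.23 higher (unadjusted p = 0.104), at 0.09 without CT replicate 2 and at 0.33 and called without CT replicate 1. Slc17a6 was higher by 0.20 (unadjusted p = 0.0565) and Slc17a7 by 0.06 (unadjusted p = 0.171), at 0.04 without CT replicate 1 and at 0.11 in edgeR and DESeq2, while Unc13b was lower, at -0.10 (unadjusted p = 0.145) and at -0.06 without CT replicate 3. Unc13b, a Munc13 priming protein, was at 15.1, 15.3 and 16.7 FPKM in CT and 14.2, 13.9 and 15.5 in WT_ST. Slc17a7 was at 581, 590 and 637 FPKM in CT and 677, 648 and 617 in WT_ST.

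Across the list, the mean was higher in WT_ST for 27 of 37 members, against 51.3% of all tested genes. Without CT replicate 3 it was higher for 19 of 37, and with any other mouse left out for 22 to 29. The groups did not overlap for 8 members, all with WT_ST higher (Syt2, Slc17a8, Syt1, Sv2a, Rab3a, Dnm1, Nsf and Slc17a6, on the normalized scale), against 14.0% of tested genes in either direction and 7.54% with WT_ST higher. The median log2 fold change of the members was 0.0237, and that of all tested genes 0.00338. The other 29 members overlapped between the groups. Microglial markers, in contrast, were called lower for 5 of 6 in each stressed group against CT, and summed to 126 to 158 FPKM in CT, 98.6 to 112 in WT_ST and 57.5 to 114 in KO_ST. Astrocyte markers summed to 425 to 475, 383 to 399 and 394 to 449.6 FPKM, with 2 of 6 called lower in WT_ST. In WT_ST 3 of 7 striatal projection neuron markers and 1 of 5 thalamic markers were called higher, and 1 of 5 endothelial markers lower. Of all tested genes, 1.16% were called higher and 1.32% lower in WT_ST, and 2.03% lower in KO_ST. Means in WT_ST went both ways for astrocyte (2 higher, 4 lower), thalamic (3 higher, 2 lower) and endothelial markers (2 higher, 3 lower). Among the endothelial markers, 1 was higher in WT_ST with an unadjusted p under 0.05 (limma). Markers of thalamic neurons, which are known to express Slc17a6, summed to 19.6 to 25.2 FPKM in CT, 25.1 to 26.5 in WT_ST and 20.5 to 26.9 in KO_ST. The part of these cell types in the members' levels was not tested. For 24 of 37 members the 95% interval of the fold change lay within 1.2-fold in both directions.

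**Figure D2:**
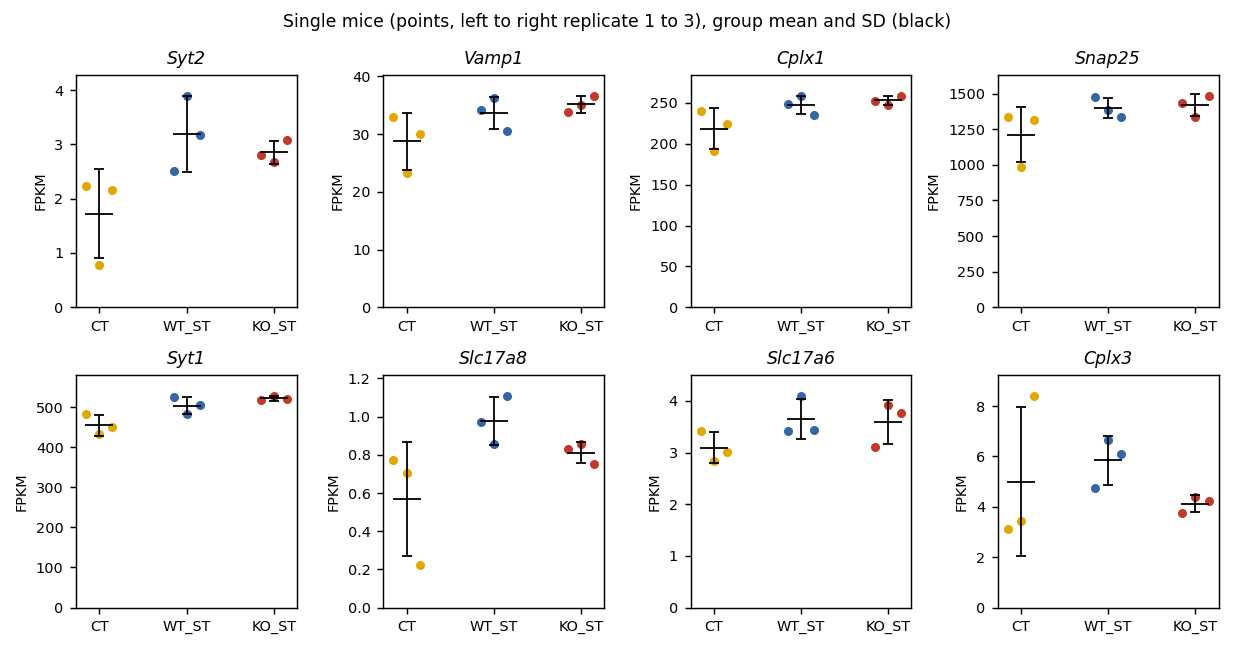
FPKM of 8 release genes in each mouse (points; replicates 1 to 3 from left to right), with the group mean and SD in black and axes starting at 0. CT replicate 2 is the lowest point for Syt2, Vamp1, Cplx1 and Snap25, and CT replicate 3 is the lowest for Slc17a8 and the highest for Cplx3.

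KO_ST against CT compared the stressed knock-outs with unrestrained wild-type mice. Syt2 and Vamp1 were called higher in KO_ST, and 0 members were called lower. These 2 calls of 37 stand against 3.56% of all tested genes (1.54% called higher and 2.03% lower). After Benjamini-Hochberg adjustment 0 members passed in limma, edgeR or DESeq2, against 0.0626% of all genes in limma, and 6, 8 and 9 members had an unadjusted p under 0.05 in the 3 tools, against 9.46% of all genes in limma. The CT mice are the same animals as in the comparison above, so the results of both comparisons share them.

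For Syt2, whose values are given above, KO_ST exceeded CT by 0.59 on the log2 scale, or 1.502-fold (SE 0.215, unadjusted p = 0.0286, adjusted p = 0.501, limma). Without CT replicate 2 it was 0.31 and remained called, but it was lost when any KO_ST mouse was left out (0.55 to 0.62), and edgeR gave 0.75 (unadjusted p = 0.0676). Vamp1 (chr6:125215581-125222306), the synaptobrevin of fast-spiking and motor circuits, was at 32.9, 23.3 and 30.04 FPKM in CT, 34.1, 36.2 and 30.6 in WT_ST and 33.7, 35.0 and 36.6 in KO_ST. All KO_ST mice exceeded all CT mice, and the CT replicate 2 value was the lowest of the 9. Its log2 fold change was 0.30, or 1.23-fold (SE 0.116, unadjusted p = 0.0349, adjusted p = 0.501, limma). Without CT replicate 2 it was 0.17 and under the 1.2-fold limit, so the call rested on that mouse, and it was also lost when any KO_ST mouse was left out (0.27 to 0.33).

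Parvalbumin, the marker of fast-spiking interneurons in which Syt2 and Vamp1 are known to be enriched, moved in the same direction. Pvalb was at 17.2, 13.0 and 14.2 FPKM in CT, 18.7, 19.3 and 15.6 in WT_ST and 18.2, 18.1 and 19.5 in KO_ST, 0.34 higher in KO_ST than in CT on the log2 scale (unadjusted p = 0.0107, adjusted p = 0.49, limma). The 5 GABA neuron markers summed to 367 to 459 FPKM in CT, with CT replicate 2 lowest, to 403 to 432 in WT_ST and to 431 to 450 in KO_ST, and 1 of 5 was called higher in KO_ST and none in WT_ST. Slc32a1, the vesicular GABA transporter, was at 25.9, 23.4 and 24.4 FPKM in CT, 30.5, 30.2 and 26.6 in WT_ST and 28.2, 30.5 and 29.0 in KO_ST, with log2 fold changes of 0.23 and 0.25 in WT_ST and KO_ST that passed p but not the fold limit. The part of cell composition in the Syt2 and Vamp1 results was not tested.

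Syt1, Nsf, Cplx1 and Sv2a had an unadjusted p under 0.05 in KO_ST against CT with a fold change under 1.2, and all 4 were without overlap. The log2 fold changes were 0.19 for Syt1 (unadjusted p = 0.0191, adjusted p = 0.499), 0.15 for Nsf (unadjusted p = 0.0318), 0.21 for Cplx1 (unadjusted p = 0.0346) and 0.09 for Sv2a (unadjusted p = 0.0395) in limma. Without CT replicate 2 the Cplx1 value was 0.13 (unadjusted p = 0.0732, limma), and without CT replicate 1 it was 0.29 and called. The Nsf value was 0.10 without CT replicate 3. Unc13c, a Munc13 isoform of low cortical level, was at 2.40, 2.37 and 1.82 FPKM in CT, 1.74, 2.41 and 2.299 in WT_ST and 2.65, 2.43 and 2.49 in KO_ST, so that KO_ST exceeded every mouse of both other groups (0.18 against CT, unadjusted p = 0.115, and 0.08 without CT replicate 3). Pclo, the scaffold Piccolo, was at 20.5, 19.0 and 18.5 FPKM in CT, 18.7, 19.3 and 20.2 in WT_ST and 20.8, 23.6 and 19.8 in KO_ST (0.15 against CT, unadjusted p = 0.0947, and 0.08 without KO_ST replicate 2). Slc17a6 was at 3.42, 2.84 and 3.02 FPKM in CT, 3.41, 4.09 and 3.43 in WT_ST and 3.11, 3.91 and 3.77 in KO_ST, a difference of 0.19 (unadjusted p = 0.0835) that was called without KO_ST replicate 1. Slc17a8 was 0.25 higher (unadjusted p = 0.128) and Napb 0.10 higher (unadjusted p = 0.175), and without CT replicate 3 these values were 0.08 and 0.05. Slc17a8 was 0.53 higher in edgeR and DESeq2 and 0.64 higher with a pseudocount of 0.1. Napb was also at 0.05 without KO_ST replicate 1. Syt7, a slow calcium sensor, was lower by a log2 fold change of -0.10 (unadjusted p = 0.124, and -0.05 without KO_ST replicate 1), at 80.5, 83.8 and 87.9 FPKM in CT and 73.2, 79.8 and 83.1 in KO_ST.

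Means exceeded those of CT in KO_ST for 26 of 37 members (23 to 28 with any 1 mouse left out), against 51.0% of tested genes, and the median log2 fold change was 0.0361 against 0.00243 for all tested genes (0.0951 for the members in edgeR on read counts). The groups did not overlap for 7 members, all higher in KO_ST, against 15.8% of tested genes in either direction and 7.94% with KO_ST higher. For 20 of 37 members the 95% interval lay within 1.2-fold. Across all 3 groups the mean was lowest in CT for 21 members, in WT_ST for 8 and in KO_ST for 8, against 38% of tested genes for CT. The summed FPKM of the 37 members was 7022 to 7497 in CT, 7560 to 8099 in WT_ST and 7746 to 7932 in KO_ST.

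**Figure D3:**
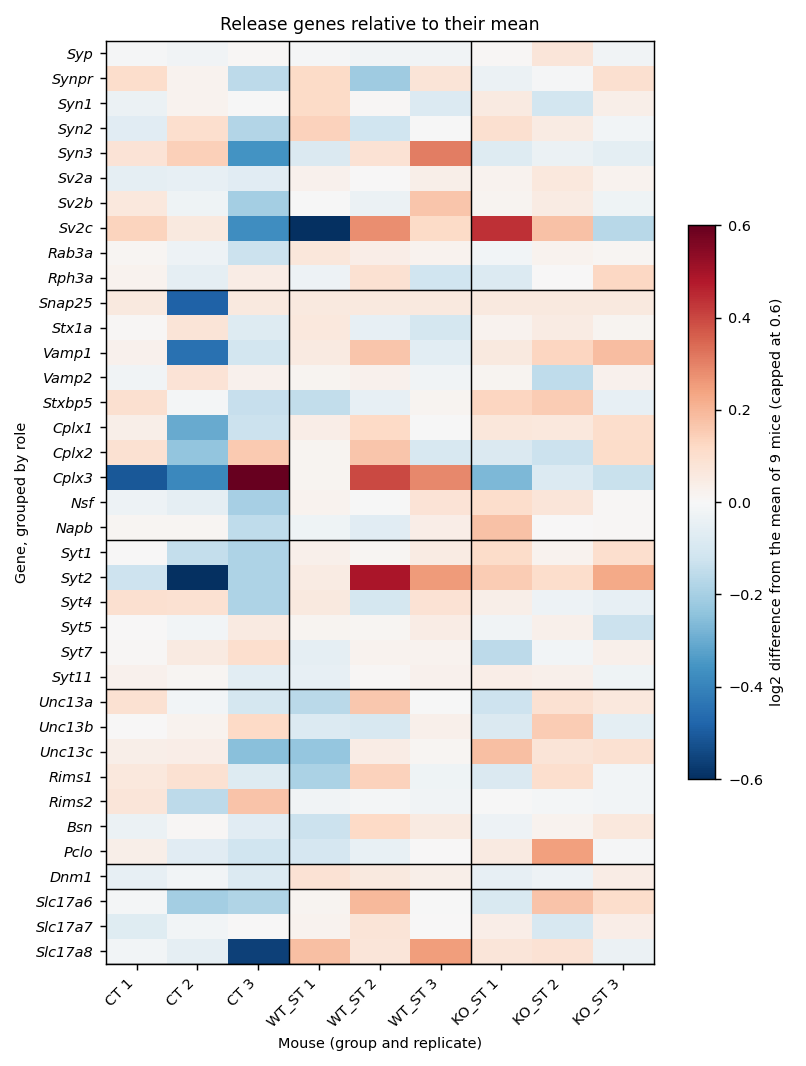
Quantile-normalized log2(FPKM + 1) of each member in each mouse minus its mean over the 9 mice (colour, capped at 0.6 either way), with genes grouped by role and black lines between roles and groups. The strongest colours are in the low genes, Syt2 in CT replicate 2 and Cplx3 in CT replicate 3 among them, and most rows are pale.

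Snap25 showed how the normalization can act on the most abundant genes. It was at 1334, 987 and 1312 FPKM in CT, 1478, 1383 and 1338 in WT_ST and 1437, 1339 and 1485 in KO_ST. CT replicate 2 was the lowest, and the other 8 mice had the identical normalized value, because Snap25 held the same rank in each of them and quantile normalization gives the same value to the same rank. Its log2 fold change was 0.18 in both WT_ST and KO_ST against CT (unadjusted p = 0.238 and 0.245), and without quantile normalization it was 0.22 and 0.24 (unadjusted p = 0.109 and 0.0857, limma). Without CT replicate 2 all mice hold that 1 value, so the difference from CT vanishes. The Snap25 difference between the stressed groups was 0.02 without that step.

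Genotype among stressed mice was read from KO_ST against WT_ST. Cplx3 was called lower in KO_ST, and it was the only one of 37 members called, against 2% of all tested genes (0.946% called higher and 1.05% lower). After Benjamini-Hochberg adjustment 0 members passed in limma, edgeR or DESeq2, against 0.153% of all genes in limma, and 1 member had an unadjusted p under 0.05 in each tool, against 5.82% of all genes in limma. Cplx3 (chr9:57599992-57606281), a complexin known from ribbon synapses and from layer 6b of the cortex, was at 3.13, 3.45 and 8.40 FPKM in CT, 4.75, 6.66 and 6.11 in WT_ST and 3.74, 4.41 and 4.25 in KO_ST. Every KO_ST mouse lay below every WT_ST mouse, while the CT mice covered the whole range. The log2 fold change was -0.40, or 0.760-fold (SE 0.108, unadjusted p = 0.00781, adjusted p = 0.69, limma). It stayed called without any single mouse, between -0.50 and -0.31, and in edgeR (-0.49) and DESeq2 (-0.48), but not when all 9 mice shared 1 estimate of the spread (unadjusted p = 0.169).

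Against CT the values of Cplx3 depended on CT replicate 3, and in KO_ST their direction did too. In WT_ST it was 0.31 higher than in CT (unadjusted p = 0.335, limma) with all mice and 0.68 without CT replicate 3 (unadjusted p = 0.00135), and in KO_ST it was -0.09 with all mice and 0.28 without it (unadjusted p = 0.0204). The layer 6b markers Ctgf and Nxph4 summed to 11.7 to 22.8 FPKM in CT, highest in CT replicate 3, to 14.1 to 18.7 in WT_ST and to 13.5 to 17.9 in KO_ST. Nxph4 was at 1.28, 2.63 and 3.41 FPKM in CT, 2.44, 2.82 and 2.66 in WT_ST and 2.22, 2.23 and 2.07 in KO_ST, without overlap between the stressed groups, and Ctgf overlapped between them. The part of sampled layers in the Cplx3 result was not tested.

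The next members by p between the stressed groups had differences within 1.2-fold. Pclo was 0.15 higher in KO_ST (unadjusted p = 0.0811, and 0.07 without KO_ST replicate 2), Unc13c 0.17 (unadjusted p = 0.0927, and 0.09 without WT_ST replicate 1) and Stxbp5 0.14 (unadjusted p = 0.0945, limma). Stxbp5, the syntaxin-binding protein tomosyn, was at 15.3, 16.3 and 17.2 FPKM in WT_ST and 18.6, 18.8 and 16.3 in KO_ST. Dnm1 was lower by a log2 fold change of -0.07 (unadjusted p = 0.0831, and -0.03 in edgeR and DESeq2), Slc17a8 by -0.13 (unadjusted p = 0.125, and -0.25 in edgeR and DESeq2), Syn3 by -0.16 (unadjusted p = 0.154), Syt5 by -0.07 (unadjusted p = 0.198) and Rab3a by -0.04 (unadjusted p = 0.254), with the opposite sign in edgeR, in DESeq2 and without quantile normalization. Syn3, a synapsin of low adult level, was at 5.88, 6.90 and 8.21 FPKM in WT_ST and 5.93, 6.07 and 6.09 in KO_ST. Syt5, a synaptotagmin, was at 119, 117 and 117 FPKM in WT_ST and 114, 117 and 106 in KO_ST. Napb, Syt1 and Stx1a were 0.08, 0.05 and 0.06 higher (unadjusted p = 0.193, 0.215 and 0.25). Napb was at 167, 158 and 169 FPKM in WT_ST and 189, 167 and 168 in KO_ST, and Stx1a at 196, 176 and 168 in WT_ST and 187, 192 and 187 in KO_ST, with overlap for both. With 1 mouse left out, Syn3 moved to -0.06 (without WT_ST replicate 3) or -0.25 (without WT_ST replicate 1), Syt5 to -0.02 (without KO_ST replicate 3) or -0.10 (without KO_ST replicate 2), Napb to 0.02 (without KO_ST replicate 1), Syt1 to 0.08 (without KO_ST replicate 2) and Stx1a to 0.02 (without WT_ST replicate 3) or 0.10 (without WT_ST replicate 1).

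Means in KO_ST exceeded those in WT_ST for 21 of 37 members (17 to 23 with any 1 mouse left out), against 49.3% of tested genes, with a median log2 fold change of 0.0106 and of -0.00147 for all tested genes. The members' median turned to -0.00208 without WT_ST replicate 1 and to -0.00799 without KO_ST replicate 3, and was 0.0283 in DESeq2. The groups did not overlap for 2 members, Unc13c (KO_ST higher) and Cplx3 (KO_ST lower), against 11.0% of tested genes in either direction and 4.99% with KO_ST higher. For 29 of 37 members the 95% interval lay within 1.2-fold, and its ends lay a median of 0.15 from the estimate on the log2 scale.

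**Figure D4:**
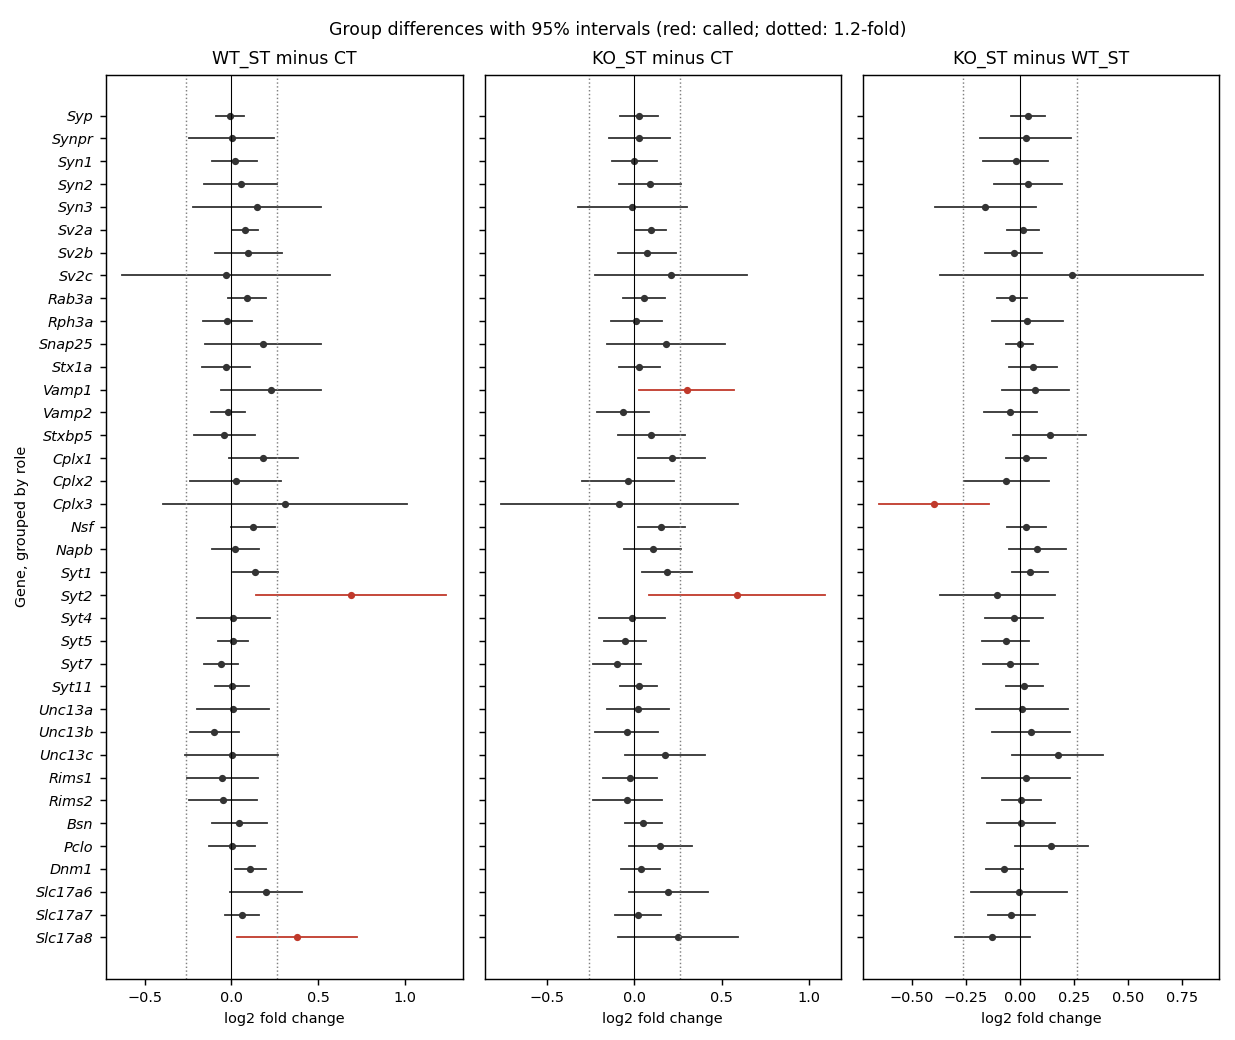
Log2 fold changes of the 37 members with 95% intervals in the 3 comparisons, with genes grouped by role, called members in red and dotted lines at 1.2-fold. Called members are Syt2 and Slc17a8 in WT_ST minus CT, Syt2 and Vamp1 in KO_ST minus CT, and Cplx3 in KO_ST minus WT_ST, and most other intervals are narrow and cross 0.

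By role, most members had levels that differed little between groups. Vesicle proteins with no called member were Syp, Synpr, the 3 synapsins, the 3 SV2 proteins, Rab3a and Rph3a. Synpr, a synaptophysin relative, was at 39.1, 36.6 and 32.8 FPKM in CT, 39.9, 31.0 and 38.2 in WT_ST and 35.6, 36.0 and 38.7 in KO_ST, with overlap in every comparison. Sv2c, a vesicle glycoprotein prominent in basal ganglia, varied most among the vesicle proteins, from 0.479 FPKM in WT_ST replicate 1 to 2.11 in KO_ST replicate 1, and its interval in KO_ST against CT ran from -0.23 to 0.65. Striatal projection neuron markers, which would mark tissue from below the cortex, summed to 58.6 to 86.3 FPKM in CT, 76.9 to 100.3 in WT_ST and 67.2 to 87.2 in KO_ST, with 3 of 7 called higher in WT_ST than CT, 1 of 7 higher in KO_ST than CT and 2 of 7 called lower in KO_ST than WT_ST. The 7 active zone and priming genes had no call, with Bsn, the scaffold Bassoon, at 43.3 to 50.7 FPKM, Rims1 at 69.4 to 85.6 and Unc13a at 60.1 to 74.0. Among the abundant synaptotagmins, Syt11, a synaptotagmin that does not bind calcium, spanned 195 to 204 FPKM over all mice, the smallest spread of the synaptotagmins. Syt4, which is induced by activity, ranged from 52.5 to 63.6 FPKM with the lowest value in CT replicate 3.

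Spread between mice set how small a difference could be seen. The highest over the lowest FPKM of a member was under 1.25 for 23 members and at least 1.5 for 8, with a median of 1.22 against 1.298 for all tested genes. Of the 7 members under 10 FPKM, 6 reached 1.5, and of the 30 others 2 did, Vamp1 at 1.57 and Snap25 at 1.504. Reads on 6 members can be shared with a listed gene on the opposite strand, since exons overlap for Syn1 (Araf), Syn2 (Timp4), Syn3 (Timp3), Sv2b (1500012K07Rik), Rab3a (Mpv17l2) and Unc13a (Colgalt1).

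**Figure D5:**
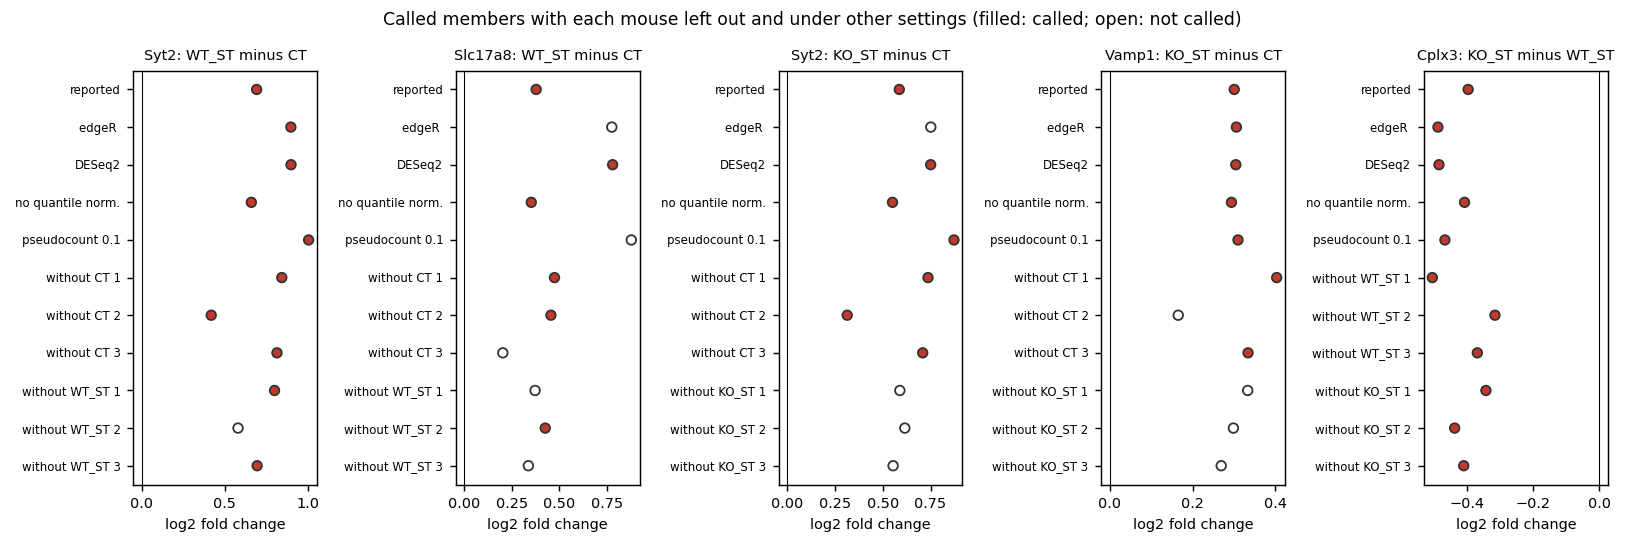
Log2 fold changes of the 5 member calls as reported, with each mouse left out and under other settings (filled: called, open: not called). The Cplx3 call is filled in each setting drawn, which do not include the fit of all 9 mice that lost it, while the Vamp1 call in KO_ST is open without CT replicate 2 and without any KO_ST mouse, and the Slc17a8 call is open without CT replicate 3.

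Another 77 release genes outside the 37 members were followed, of which 74 were tested: other SNAREs and their partners, calcium sensors and priming factors, active zone proteins, vesicle proteins, vesicular transporters and retrieval proteins. In WT_ST against CT 0 were called and 3 had an unadjusted p under 0.05 (limma, all higher), against 7.86% of all tested genes. In KO_ST against CT 9 had an unadjusted p under 0.05, against 9.46% of all tested genes, and in KO_ST against WT_ST 3 did, against 5.82%, again all higher. Rab27b, a secretory Rab, was called higher in KO_ST than in WT_ST. It was at 6.41, 5.93 and 6.19 in CT, 4.54, 6.45 and 4.30 in WT_ST and 7.79, 6.60 and 6.77 in KO_ST, 0.43 higher (SE 0.132, unadjusted p = 0.0141, adjusted p = 0.776, limma). Of the 74, the mean was higher in WT_ST than CT for 44, in KO_ST than CT for 48 and in KO_ST than WT_ST for 49.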

How the data were processed

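Libraries were prepared with a stranded mRNA kit from the medial prefrontal cortex of single mice and sequenced as paired-end reads of 101 bases. By the methods and the submitters' processing notes, the authors aligned reads to GRCm38 with HISAT2 2.1.0 (Bowtie2 2.3.4.1 is also listed) and quantified them with StringTie 1.3.4d; the strand setting of the counting is not given in the sources used here. Per gene, the authors deposited raw read counts and FPKM values (scaled to length and mapped reads). Depth was 43778471 to 61150128 reads per mouse.

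A pseudocount of 1 was added to FPKM, and the log2 values were quantile normalized together for the 9 mice. Genes averaging at least 30 reads were tested with limma 3.58.1 (R 4.3.3, moderated with a trend) on the 3 mice of each of 2 groups, with the call rule given above. The study's methods also quantile normalized and filtered at 30, but tested each gene without moderation, which was run as an alternative. A fold change on this scale understates that of low genes. Replicate numbers come from the labels. P-values set the difference between groups against the spread between mice within groups, which limma moderates with a trend over all tested genes. edgeR 4.0.16 and DESeq2 1.42.0 on counts, other filters, pseudocounts and leaving out each mouse were alternatives. In simulated data with 14342 genes, of which 200 were changed, with a median absolute log2 fold change of 0.864 as fitted, limma recovered 77.3% of them in WT_ST against CT at an adjusted p under 0.05, which says little of smaller changes. All members were described, and members called or among the 12 with the smallest p in a comparison were given per mouse. Of the other release genes those called were to be named, and some of these results are not reported here. Genes outside these rules, the marker genes among them, were named after their values were seen. The members and lists were chosen with earlier results of these data known. Promoters and positions come from RefSeq (GRCm38.p6), and a window is the 250 bases before a listed start. Figures used matplotlib 3.10.9 in Python 3.11.15.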

Additional observations from a re-analysis of the deposited data

How the results depend on the processing

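For the single named members, which were picked by small p, calls changed with the settings more often than directions did. Over all tested members, directions also moved: the number with a higher mean in WT_ST than CT ran from 19 to 29 over the settings. In WT_ST against CT the 2 member calls became 1 in edgeR with and without its filter on low counts, with a pseudocount of 0.1 and with no filter, and 0 in an unmoderated test and with a mean FPKM filter of 5, with 1 to 4 when each mouse was left out. In KO_ST against CT the 2 calls became 1 in edgeR with and without its filter and with a mean FPKM filter of 5, and 0 in an unmoderated test and with no filter, with 0 to 3 when each mouse was left out. In KO_ST against WT_ST the 1 call became 0 with a mean FPKM filter of 5 and when all 9 mice shared a fit, and it stayed at 1 without any mouse. The mean FPKM filter of 5 left 31 of 37 members, so the calls of Syt2, Slc17a8 and Cplx3 were not tested under it rather than lost. The median log2 fold change of the members in KO_ST against CT was 0.0951 in edgeR, 0.0939 in DESeq2, 0.0722 without quantile normalization and 0.0924 in edgeR without its filter, with 0.0328 to 0.0725 when each mouse was left out, and in WT_ST against CT it ran from 0.0213 to 0.0699, highest without WT_ST replicate 1, and in KO_ST against WT_ST, 0.0106 as reported, from -0.00799 to 0.0283 over all settings. Rab3a in KO_ST against WT_ST, at -0.04, reversed to 0.013 in edgeR, 0.0168 in DESeq2, 0.00144 without quantile normalization and 0.0154 in edgeR without its filter. Of all genes called, 46.8% were higher in WT_ST than CT, against 34.1% without quantile normalization and 33.1% in edgeR, and 43.2% were higher in KO_ST than CT, against 28.5% and 37.6%. Calls over all genes in WT_ST against CT, 355 as reported, were 535 in edgeR, 544 with a pseudocount of 0.1, 164 unmoderated and 174 with a mean FPKM filter of 5; in KO_ST against CT the 512 became 248 under either of the last 2 settings, and in KO_ST against WT_ST the 287 became 445 with a pseudocount of 0.1, 138 unmoderated and 118 with the filter of 5. In edgeR without its filter the counts over all genes were 700, 843 and 544. A replicate block left the member calls at 2, 2 and 1; mice with the same number correlated at a mean of -0.0101, so the numbers were not taken as pairs. For single named members 4 values reversed, 24 lost and 4 gained a call, and 534 kept direction and call. Read counts were lowest for Slc17a8, with 50 in CT replicate 3. The causes of these changes were not tested.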
